A study of Mus musculus with 2 samples.

Results

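Oligodendrocyte precursor cells of the embryonic mouse cerebellum were examined in 1 control and 1 mutant single-cell library. Cells were counted as members when they held at least 1 UMI (unique molecular identifier, which marks a captured transcript) of Pdgfra, at least 1 UMI of Olig1 and Olig2 together, and fewer than 5 UMIs of the collagen genes Col1a1 and Col3a1 together. Of 33294 cells kept in the 2 libraries 485 met this rule, 351 of 16812 control cells and 134 of 16482 mutant cells. Members were thus chosen by their measured Pdgfra, Olig1, Olig2, Col1a1 and Col3a1 UMIs, and their levels of these genes are a description and were not tested. The label held for only part of them: 114 control and 60 mutant members also had a UMI of Sox10 and carried the other precursor markers, while many of the remaining members carried transcripts of other cell types. Results are therefore given for all members and, beside them, for the members with Sox10.

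Whole cerebella were taken at E16.5, before birth. Control animals were cre-negative, and the labels name no floxed allele for them. Mutant animals carried Blbp-cre with the alleles Ctnnb1(ex3)fl/wt and Smarca4fl/fl. Blbp drives the recombinase in radial glia and the neural progenitors they give rise to. Beta-catenin, which carries the canonical Wnt signal to the nucleus, escapes degradation once exon 3 of Ctnnb1 is removed. SMARCA4 is a catalytic subunit of BAF, the mammalian SWI/SNF complex that moves nucleosomes. Each library was made from 3 pooled samples, with 40000 cells loaded. There was thus no replicate and no test was made: every interval below is a 95% interval for counting error only, and says nothing of the spread between animals.

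Oligodendrocyte precursors are glial progenitors that divide and migrate through the brain before some of them become the myelin-forming oligodendrocytes. PDGF receptor alpha, encoded by Pdgfra, is the receptor for their main mitogen, OLIG1 and OLIG2 are transcription factors of the lineage, and SOX10 is a transcription factor that the lineage shares with Schwann cells. The BAF complex takes part in switching on differentiation genes in this lineage, and Wnt signalling is known for holding precursors back from differentiation. In GRCm38, Pdgfra (ENSMUSG00000029231) lies on chromosome 5 from 75152292 to 75198215, Olig1 (ENSMUSG00000046160) on chromosome 16 from 91269772 to 91271933, Olig2 (ENSMUSG00000039830) on chromosome 16 from 91225457 to 91228677, all on the plus strand, and Sox10 (ENSMUSG00000033006) on chromosome 15 from 79154908 to 79165240 on the minus strand.

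The deposited matrices held 21457 control and 21596 mutant barcodes, and kept cells summed to 193157898 and 186227263 UMIs. Members were deeper than other cells, with a median of 13982 UMIs in control and 12092.5 in mutant members against 10208 and 9928.5 in the other kept cells. Scrublet, a caller of droplets with more than 1 cell, marked 15.7% of control and 10.4% of mutant members, against 4.79% and 3.69% of other cells, and these cells were kept in the main values. In members the Xist level was 449.7 CPM (UMIs per 1000000 UMIs of these cells) for control and 296.8 CPM for mutant members, with 128 and 177 CPM of Y-linked genes. Over all kept cells Xist was at 369 and 259 CPM and the Y-linked genes at 128 and 147 CPM. Xist also differed within the control library, at 692 CPM in members with Sox10 and 359 CPM in those without. The sex make-up of the pools may thus differ, and this was not tested. The libraries shared 123 barcodes, of which 0 were members in both libraries.

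Members with Sox10 had the profile of oligodendrocyte precursors. They held a median of 4 Pdgfra UMIs per cell in both libraries, from 1 to 21 in control and from 1 to 18 in mutant cells. Lhfpl3, a membrane protein gene of the precursor marker list, had a median of 19 UMIs per cell in control (range 1 to 125) and 19.5 in mutant cells (0 to 71), with 1 mutant cell at 0. The other marker genes were Cspg4 (the NG2 proteoglycan), Ptprz1 (a receptor phosphatase), Sox8, Bcan (brevican), Matn4, Gpr17, Nkx2-2 and Neu4. With Lhfpl3, these 9 genes, which neither the rule nor Sox10 chose, summed to 4448 CPM in control and 5058 CPM in mutant members with Sox10. They summed to only 304 and 305 CPM in the 88 control and 24 mutant members that had exactly 1 Pdgfra and 1 Olig UMI, against 602 and 561 CPM in all other kept cells. At the edge of the rule, the members just inside it thus stood below the average of the other cells for these markers. Just outside it, the 1420 control and 501 mutant cells with Pdgfra and no Olig UMI were at 116 and 190 CPM. The 2615 control and 1277 mutant cells with Olig and no Pdgfra UMI were at 2179 and 2368 CPM, of which Ptprz1 gave 1871 and 2122 CPM and Lhfpl3 64.0 and 69.4 CPM. Neu4, a sialidase gene of the oligodendrocyte lineage, was near 0 even in members with Sox10, at 1.98 and 1.34 CPM.

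**Figure D1:**
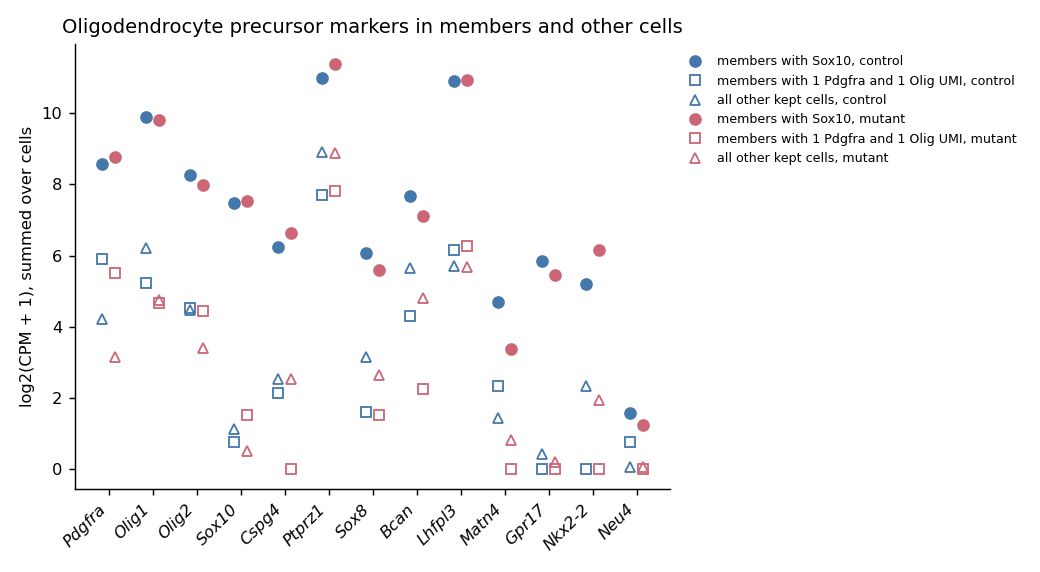
Levels of the 13 oligodendrocyte precursor markers as log2(CPM + 1), summed over cells, in members with Sox10 (filled circles), members with exactly 1 Pdgfra and 1 Olig UMI (open squares) and all other kept cells (open triangles) of the control (blue) and mutant (red) library. Lhfpl3 stands at 1922 and 1975 CPM in members with Sox10 and at 69.6 and 76.8 CPM in the members with 1 UMI of each, close to the 51.2 and 50.2 CPM of other cells.

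Every member was placed by the transcripts it held, in a fixed order that was chosen after the data were seen. Beyond the members with Sox10, 80 control and 32 mutant members had at least 2 Lhfpl3 UMIs, with Cspg4 at 33.1 and 36.8 CPM against 75.3 and 99.0 CPM in members with Sox10. The largest further group had at least 5 UMIs of Neurod1, a transcription factor of granule neurons: 97 control members and 4 mutant members, with a ratio of shares of 0.0421 (0.0112 to 0.111). Among members not placed earlier in the order, 9 control and 13 mutant ones had over 1% of UMIs from Ttr, the transthyretin gene of choroid plexus epithelium. In each library 1 member with Sox10 was also over 1% Ttr. Fabp7, the radial glial gene whose other name is Blbp, took over 0.2% of UMIs in 23 and 8 further members. Over 50% haemoglobin was held by 3 and 1 members not placed earlier, and by 10 and 4 of all members. The remaining 25 and 16 members had none of these.

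**Figure D2:**
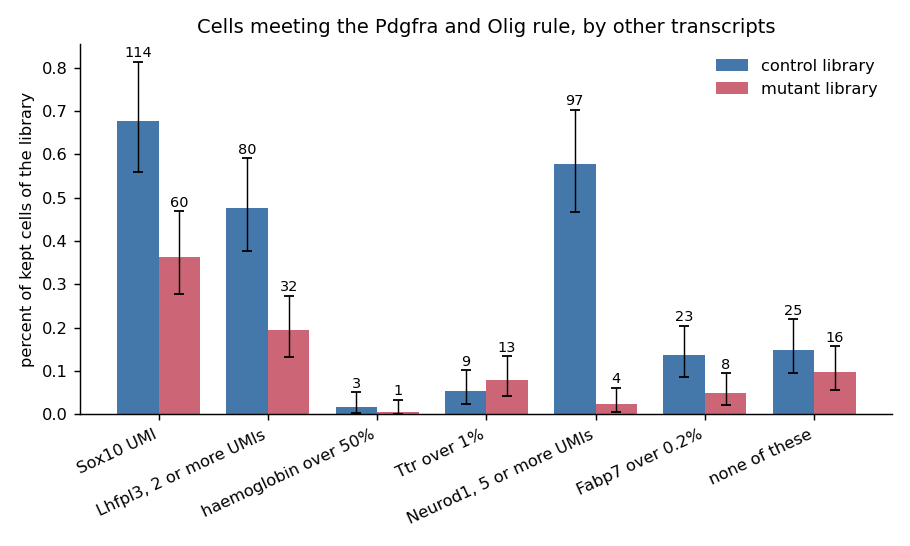
Members of the control (blue) and mutant (red) library by the transcripts they held, assigned in the order from left to right, as percent of kept cells with exact binomial 95% intervals and with the number of cells above each bar. The members placed in this order as rich in Neurod1, 97 control and 4 mutant, make the widest gap.

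Cells of other types also met the rule, and the parts of free RNA and of shared droplets in this were not tested. No microglia (cells with at least 5 UMIs of the C1q genes) did, 0 of 142 control cells, which allows up to 2.11%, and 0 of 98 mutant cells, which allows up to 3.06%, taking 3 cells as the most that a count of 0 allows. Of control erythroid cells, those over 50% haemoglobin, 1.5% (10 of 666) met it, and of mutant ones 0.514% (4 of 778). Among cells with at least 5 Neurod1 UMIs, the control share was 2.40% (119 of 4967) and the mutant share 0.528% (8 of 1515), and 21.8% of these control cells had a Pdgfra UMI against 9.24% in the mutant library. A Sox10 UMI was found in 0.751% of control and 0.386% of mutant erythroid cells, in 2.11% of control microglia and in 0 of 98 mutant microglia. These shares lie below that of the rule in control erythroid cells, near it in mutant ones and above it in control microglia. A Pdgfra UMI, taken alone, was more frequent, in 7.21% and 2.70% of erythroid cells and in 8.45% and 3.06% of microglia. The median depth of the erythroid cells was 17504 and 17425 UMIs, and that of microglia 10374.5 and 10147.5 UMIs.

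The mutant library held a smaller share of members. They were 2.09% (1.88 to 2.32) of kept control cells and 0.813% (0.682 to 0.962) of kept mutant cells, a ratio of 0.389 (0.317 to 0.476). Members with Sox10 were 0.678% and 0.364% of kept cells, a ratio of 0.537 (0.386 to 0.740), and members without Sox10 stood at 0.318 (0.242 to 0.415). With cells rich in Ttr, Neurod1 or haemoglobin left out together the ratio was 0.520. The cells left out included the 119 control and 8 mutant members with at least 5 Neurod1 UMIs. The part of these alone in the lower ratio was not tested. By depth of the marker, members with 5 or more Pdgfra UMIs numbered 72 and 30, with a ratio of 0.425 (0.268 to 0.659). Shares of a whole library depend on what else it holds: cells with Olig and no Pdgfra had a ratio of 0.498 (0.466 to 0.533), cells with Aqp4 (an astroglial water channel) and neither gene 0.641 (0.569 to 0.722), and fibroblast-type cells with Pdgfra, at least 5 collagen UMIs and no Olig 0.872 (0.747 to 1.02). Lower ratios stood in cells with Pdgfra, fewer than 5 collagen UMIs and no Olig, at 0.360 (0.324 to 0.399). Cells with Sox10 that were not members were at 0.385 (0.268 to 0.544), and cells with at least 5 Neurod1 UMIs at 0.311 (0.294 to 0.330). The interval of members with Sox10 lies below that of the Pdgfra and collagen cells and above that of the Neurod1 cells. It overlaps those of the other gates named here.

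Mutant members held less Smarca4 RNA, from one of the 2 targeted genes. Its gene (ENSMUSG00000032187) spans 21616169 to 21704230 on the plus strand of chromosome 9 in GRCm38. It stood at 75.5 CPM in control and 44.3 CPM in mutant members, a ratio of 0.587 (0.464 to 0.737), and at 83.9 and 37.5 CPM in members with Sox10, a ratio of 0.447 (0.285 to 0.677). For members with Sox10 this was 1.11 UMIs per control cell and 0.467 per mutant cell. Of 114 control cells 58 had a Smarca4 UMI and 10 had 3 or more, and of 60 mutant cells 21 had a UMI and 1 had 3 or more. Mutant microglia, which are not of the neural lineage, held 0.418 and mutant erythroid cells 0.199 (0.169 to 0.233) UMIs per cell. The remaining level in mutant cells with Sox10 was thus close to that of microglia. Control microglia held 0.493 and control erythroid cells 0.320 (0.278 to 0.366) UMIs per cell. Erythroid cells, also not of the neural lineage, thus held less Smarca4 in the mutant library too, and why was not tested. After each cell was thinned to 3000 UMIs, a Smarca4 UMI was left in 17.3% (10.7 to 25.7) of control cells with Sox10 and in 15.8% (7.48 to 27.9) of mutant ones, shares whose intervals overlap. Smarca2, the alternative ATPase of the complex, was at 63.4 and 70.9 CPM in members with Sox10, a ratio of 1.12 (0.784 to 1.58). The other targeted gene, Ctnnb1 (ENSMUSG00000006932), lies from 120929216 to 120960507 on the same chromosome and strand. It was at 129.5 and 149.9 CPM there, a ratio of 1.16 (0.909 to 1.47), and a 3' tag does not check the deletion of its exon 3. The labels do not name the floxed Smarca4 exons, so a 3' tag may lie outside them.

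Next, the genes that set members apart from other cells were listed. In the control library 69 of 3556 genes at 50 CPM or more (1.94%) were at least 2-fold higher in members than in other cells by size, and in the mutant library 145 of 3719 (3.9%). Since the rule chose the cells, this is a description only. The 15 that led in both libraries were Lhfpl3, Brinp3, Pcdh11x, Scrg1, C1ql1, Nxph1, Xylt1, Sox2ot, Bcas1, Sox6, Dscam, Rgcc, Kcnip3, Grin3a and Ncald. They include C1ql1, a secreted C1q-like protein, Xylt1, which starts glycosaminoglycan chains on proteoglycans, Sox6, a transcription factor of the precursor state, and Grin3a, a subunit of NMDA receptors. Of these 15 genes, 13 differed by less than 1.5-fold between mutant and control members. Brinp3 was higher in the mutant library, at 228 against 136 CPM, and Bcas1 lower, at 61.5 against 105 CPM. Among members with Sox10 Lhfpl3 was at 1922 and 1975 CPM, Sox6 at 987 and 838 CPM and Pcdh11x at 518 and 434 CPM.

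Between the libraries, a gene was counted as higher or lower at 1.5-fold or more with its counting interval on 1 side of 1, among genes at a mean of 20 CPM or more. In all members 532 of 7010 genes (7.59%) were higher and 344 (4.91%) lower in the mutant library. In members with Sox10 320 of 6889 (4.65%) were higher and 435 (6.31%) lower. Of the 532 higher genes, 126 were also counted as higher in members with Sox10, and of the 344 lower genes 138 were also counted as lower there. The median log2 ratio over all genes was 0.01 in all members and -0.01 in those with Sox10.

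The 12 largest differences upward in all members were Fstl4, Wif1, Rgs6, Adamts19, Col25a1, Pde1a, Tnfrsf19, Ntng1, Tmem132c, Lef1, Spock3 and Lingo2. Fstl4, a follistatin-like protein gene, was at 1.62 CPM in control and 299 CPM in mutant members, but at 3.30 and 62.9 CPM in members with Sox10. In the other kept cells of the libraries it was at 5.65 and 545 CPM. In mutant members with Sox10 it came to 0.783 UMIs per cell, below the 1.34 of mutant microglia and the 2.20 of mutant erythroid cells, so in those cells it did not exceed the level of these other types. One mutant member, the deepest at 107892 UMIs, held 34.7% of all Fstl4, 52.0% of Lingo2 and 48.6% of Adamts19 UMIs of mutant members. It had 1 Pdgfra and 1 Olig2 UMI and no Sox10. Without the cell richest in each gene the log2 ratios went from 6.84 to 6.76 for Fstl4, from 2.98 to 2.53 for Lingo2 and from 4.48 to 3.87 for Adamts19. Tnfrsf19, a receptor gene known as a Wnt target, was at 10.4 and 120 CPM in all members and at 10.6 and 115 CPM in members with Sox10, and Lef1, a nuclear partner of beta-catenin, at 13.5 and 129 CPM and at 7.27 and 106 CPM.

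The 12 largest differences downward were Hpca, Mfap4, Tlx3, Ptgds, Neurod1, Islr2, Ppp2r2c, Sphkap, Cog7, Sstr2, Pax6 and Mab21l1. Neurod1 was at 426 CPM in control and 70.5 CPM in mutant members, and Pax6, a transcription factor of granule cell precursors, at 198 and 45.3 CPM. Of members with at least 5 Neurod1 UMIs 119 were control and 8 mutant, and their part in these levels was not tested. In members with Sox10 Neurod1 was at only 70.7 and 6.69 CPM and Pax6 at 85.9 and 8.03 CPM, with 6 control and 0 mutant cells at 5 or more Neurod1 UMIs. The ratios of Neurod1 and Pax6 were 0.0947 (0.0301 to 0.228) and 0.0935 (0.0337 to 0.209) there, against 0.166 and 0.229 in all members. In control erythroid cells 30.5% had a Neurod1 UMI against 11.6% in the mutant library, a difference in the same direction. Ptgds, a prostaglandin synthase gene of meninges, rested on 1 control cell with 94.7% of its 4843 UMIs. Without the richest cell of each library its log2 ratio was 1.29 in place of -2.69.

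**Figure D3:**
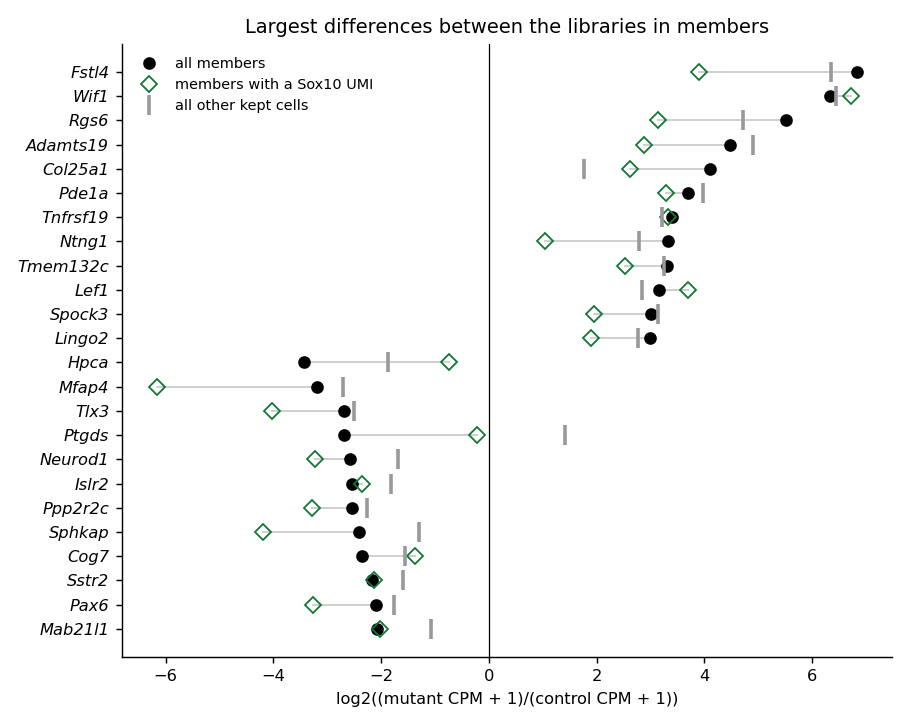
Log2((mutant CPM + 1)/(control CPM + 1)) of the 24 genes with the largest differences between libraries, in all members (black circles), members with Sox10 (green diamonds) and all other kept cells (grey ticks). All but Ptgds take the same side in the 3 sets of cells, Tnfrsf19 lies at 3.41 in all members and 3.33 in members with Sox10, and Ptgds lies at 1.42 in other cells.

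Genes of precursor identity gave more calls than the background in all members and few in members with Sox10. Of 22 measured genes of the identity list 4 were higher (Nkx2-2, Cspg4, Pcdh15 and Tmem100) and 2 lower (Rlbp1 and Etv4) in all mutant members, with a median log2 ratio of 0.30, against 7.59% higher and 4.91% lower over all genes. Among members with Sox10 1 of 24 was higher and 1 lower, with a median of -0.09, against 4.65% and 6.31% over all genes. The higher one was Nkx2-2, a homeodomain factor that acts at the onset of oligodendrocyte differentiation, at 35.7 CPM in control and 70.9 CPM in mutant cells, a ratio of 1.99 (1.34 to 2.96). It was detected in 41 of 114 control and 27 of 60 mutant cells. The lower one was Rlbp1, a retinaldehyde-binding protein gene of glia, at 54.2 and 20.1 CPM, detected in 45 control and 12 mutant cells. Sox10 itself, which chose these cells, was at 176 and 185 CPM.

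Among genes of earlier progenitors, Egfr, the EGF receptor gene, was lower in the mutant library. It stood at 141 CPM in control and 41.5 CPM in mutant members with Sox10, a ratio of 0.293 (0.195 to 0.429). Control cells ranged from 0 to 23 and mutant cells from 0 to 8 Egfr UMIs, and 24 control but 3 mutant cells had 3 or more. After thinning an Egfr UMI was left in 25.5% (17.6 to 34.6) of the control set and in 10.5% (3.96 to 21.5) of the mutant set, against 5.43% and 8.97% in microglia. The intervals of the control and mutant set overlap. Before thinning Egfr per cell was lower in the mutant library in other types too. It came to 0.606 and 0.357 UMIs in microglia and 0.381 and 0.207 in erythroid cells, against 1.88 and 0.517 in members with Sox10. Of the 20 measured genes of that list 2 were higher (Hes1 and Dll1) and 1 lower in all members. In members with Sox10 2 were higher, the intermediate filament genes Vim (526 and 808 CPM) and Nes (60.1 and 99.0 CPM), and 6 lower, namely Egfr, the Notch ligand Dll3, the chromatin remodeller Chd7, the glial transcription factors Nfia and Nfib, and Btg2. Chd7, for example, was at 404 and 234 CPM. The shares over all genes were 7.59% higher and 4.91% lower in all members, and 4.65% and 6.31% in those with Sox10. Hes1, a Notch effector, was at 25.1 and 24.1 CPM in members with Sox10.

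Genes of committed oligodendrocytes and myelin were lower in mutant members with Sox10, and 1 control cell held a large part of their UMIs. In all members 4 of 10 measured genes were lower (Nfasc, Bcas1, Tubb4a and Mbp) and 1 higher (Tcf7l2), with a median of -0.21. Among members with Sox10 8 of 11 were lower and 1 higher, with a median of -0.85, against 6.31% lower and 4.65% higher over all genes. A control cell of 19703 UMIs held 566 of the 2299 UMIs of the list without Tcf7l2 (24.6%), with 75.3% of the UMIs of Mbp (myelin basic protein). Without the richest cell of each library 3 of 11 genes were lower, Nfasc, Bcas1 and Zfp536, and the median was -0.43. With at least 2 Pdgfra UMIs required, 3 genes of the list were lower, and without cells rich in Ttr, Neurod1 or haemoglobin the log2 ratio of Zfp536 was 0.05. Bcas1, a gene that marks early myelinating oligodendrocytes, was spread over many cells. It was detected in 100 of 114 control cells (87.7%) and 39 of 60 mutant cells (65%), with 3 or more UMIs in 55 and 13 cells, and stood at 269 and 142 CPM, a ratio of 0.528 (0.422 to 0.655). Without the richest cell of each library it was at 234 and 144 CPM, a ratio of 0.616 (0.490 to 0.770). Bcas1 was lower by more outside the members, at 26.0 and 5.66 CPM in the other kept cells, a ratio of 0.218, and at 17.3 and 2.39 CPM in the cells with Aqp4 and neither Pdgfra nor Olig. Control cells with Sox10 had a median of 6 of 23 list genes detected and mutant cells 4.5, while their depth had medians of 11264 and 10088 UMIs. Enpp6, a marker of newly formed oligodendrocytes, was detected in 2 control and 0 mutant cells. Tcf7l2, a Wnt effector that is switched on as precursors differentiate, was higher, at 127 and 206 CPM, a ratio of 1.62 (1.31 to 2.02).

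**Figure D4:**
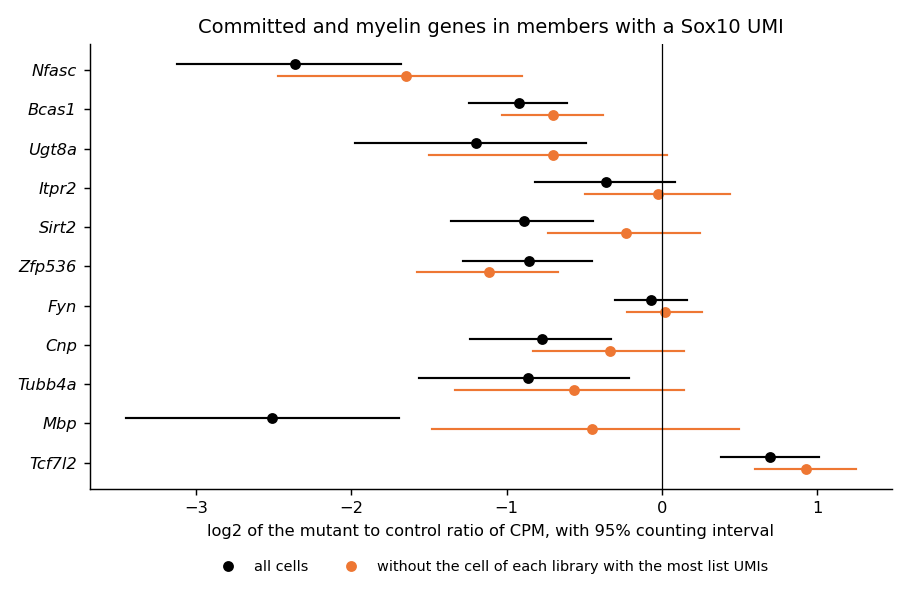
Log2 of the mutant to control ratio of CPM, with 95% counting intervals, for the measured committed and myelin genes in members with Sox10, over all cells (black) and without the cell of each library that held the most UMIs of the list (orange). Mbp moves from a ratio of 0.176 to 0.733 and Bcas1 only from 0.528 to 0.616.

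Of 10 measured genes of PDGF, FGF, IGF and neuregulin signalling 0 were higher and 4 lower in mutant members with Sox10, namely Erbb4, Pdgfc, Igf1r and Fgfr2, with a list median of -0.17, against 4.65% higher and 6.31% lower over all genes. Erbb4, a neuregulin receptor gene, was at 2370 and 1421 CPM, a ratio of 0.600 (0.560 to 0.642), and was detected in 110 of 114 control and 56 of 60 mutant cells. Pdgfc, a PDGF ligand gene, was at 57.5 and 13.4 CPM, in 29 and 7 cells. In all members 3 of 11 were higher (Spry1, Pdgfa and Fgfr1) and 2 lower (Erbb4 and Pdgfc), against 7.59% and 4.91% over all genes. Pdgfra itself was at 384 and 440 CPM in members with Sox10. Erbb4 was also lower in the other kept cells, at 1471 and 636 CPM.

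Wnt target genes were higher in mutant members, and only some exceeded the level in microglia and erythroid cells, which is read as background. In all members 9 of 9 measured targets were higher (median log2 ratio 2.14), against 7.59% of all genes. In members with Sox10 8 of 10 were higher and 1, Znrf3, lower (median 2.31), against 4.65% higher and 6.31% lower over all genes. The log2 ratio of Znrf3 there was 0.07 without cells rich in Ttr, Neurod1 or haemoglobin. In the other kept cells the same list had a median of 2.54. Lef1 came to 0.0965 UMIs per cell in control and 1.32 (1.04 to 1.64) in mutant members with Sox10, against 0.469 (0.344 to 0.626) in mutant microglia and 0.704 (0.647 to 0.766) in mutant erythroid cells. Tnfrsf19 came to 1.43 UMIs per cell in mutant members with Sox10, against 0.276 and 0.523, and Nkd1, a feedback inhibitor gene of the pathway, to 3.13 against 1.35 and 1.84. Sp5, a transcription factor gene, came to 0.917 (0.691 to 1.19) against 0.327 and 0.563, although in the control library microglia held more of it (0.894) than members with Sox10 (0.193). Nkd1 in control cells was at 0.640 in members with Sox10 against 0.838 in microglia. Rnf43, which removes Wnt receptors from the cell surface, came to 0.900 against 0.102 and 0.0913, and it already stood above background in control members with Sox10, at 0.333 against 0.0211 and 0.00450. Axin2, the inhibitor of beta-catenin stability, came to 0.650 (0.462 to 0.889) against 0.286 (0.190 to 0.413) and 0.452 (0.406 to 0.502), so its interval overlapped that of erythroid cells. Wif1, a secreted Wnt inhibitor gene with 0 UMIs in control members with Sox10, came to 1.30 against 1.05 and 1.32, and Apcdd1 to 0.383 against 0.653 and 0.524, and neither exceeded background. Nor did Notum, at 0.150 against 0.388 and 0.206, or Znrf3, at 0.600 against 0.776 and 0.905. Tcf7 was low in all 3 sets, at 0.100 (0.0367 to 0.218) against 0.0102 and 0.0257. The signal was uneven: Lef1 was detected in 18 of 60 mutant cells with Sox10 and had 3 or more UMIs in 7, and Nkd1 was detected in 38 and had 3 or more UMIs in 22. Of 11 measured other Wnt pathway genes 0 were higher and 1, the receptor gene Fzd2, was lower in all members, against 7.59% and 4.91% over all genes. Of 9 in members with Sox10 none was counted either way, against 4.65% and 6.31%. A count of 1 in a list this short lies near these shares.

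**Figure D5:**
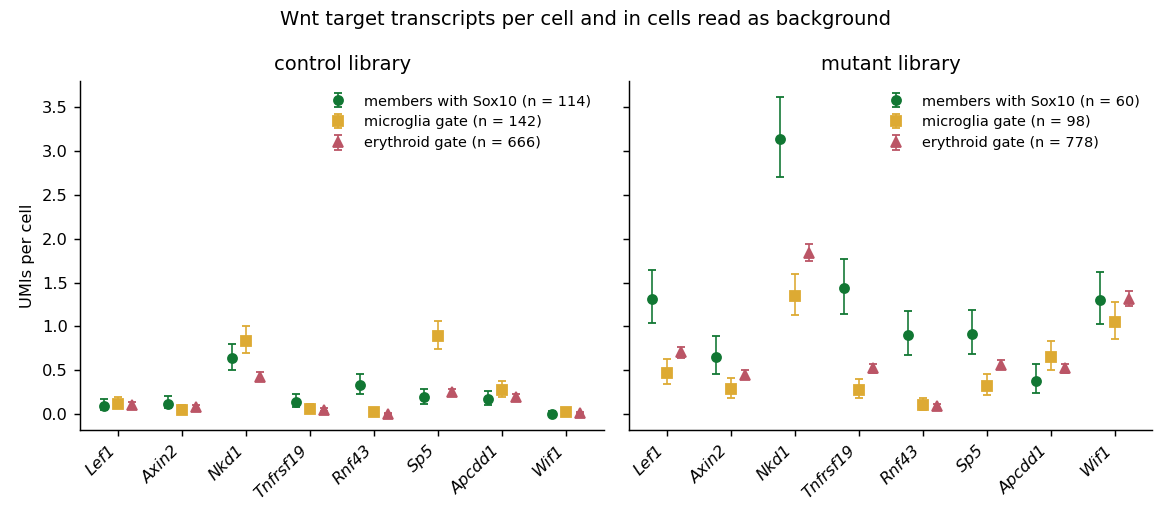
UMIs per cell of 8 Wnt target genes in members with Sox10 (green), microglia (yellow) and erythroid cells (red) of the control (left) and mutant (right) library, with Poisson 95% intervals. In the mutant library Lef1, Nkd1, Tnfrsf19, Sp5 and Rnf43 lie above both sets of cells read as background, while Wif1 and Apcdd1 do not.

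Shares of cells with Wnt target UMIs differed in the same direction. After thinning to 3000 UMIs, 17.0% (13.1 to 21.5) of 329 control and 47.9% (38.8 to 57.2) of 121 mutant members had 2 or more UMIs of the 10 Wnt targets Rnf43, Znrf3, Axin2, Nkd1, Notum, Apcdd1, Wif1, Lef1, Tcf7 and Sp5. Before thinning the shares were 60.4% and 73.9%. Of members with Sox10 the thinned shares were 11.8% (6.45 to 19.4) and 35.1% (22.9 to 48.9), and before thinning 44.7% and 71.7%. Thinned mutant microglia were at 21.8% (13.2 to 32.6) and erythroid cells at 23.9% (21.0 to 27.1), against 2.33% and 4.41% in the control library, so the interval of mutant members with Sox10 overlaps both. At 2000 UMIs mutant members with Sox10 were at 35.1% (22.9 to 48.9), 15 of 91 microglia (9.53% to 25.7%) had such UMIs and erythroid cells were at 15.8% (13.3 to 18.6), so the interval overlaps only that of microglia. Thinning left out 22 control and 13 mutant members for lack of depth.

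Among subunits of the BAF complex other than Smarca4, most did not differ past 1.5-fold. Of 24 measured subunit genes 3 were higher (Brd7, Phf10 and Dpf3) and 2 lower (Smarca4 and Actl6b) in all members, with a median of -0.02. These counts stand against 7.59% higher and 4.91% lower over all genes. Brd7, a subunit gene of the PBAF form, was at 107 and 203 CPM in members with Sox10, a ratio of 1.90 (1.51 to 2.39), and Phf10, of the same form, at 17.8 and 36.1 CPM, a ratio of 2.03 (1.14 to 3.59). Brd7 was also higher in the other kept cells, at 87.7 and 291 CPM, and came to 0.306 UMIs per control and 1.19 per mutant erythroid cell, a difference in the same direction. Dpf3 was at 27.1 and 14.7 CPM in members with Sox10, and 53.3% of its UMIs in mutant members came from the deepest cell. The deepest control member, a member with Sox10, held 15 of the 100 Dpf3 UMIs of control members. Arid1b, which encodes a DNA-binding subunit, was at 97.8 and 80.3 CPM in members with Sox10.

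The shares of dividing cells in the libraries differed by less than their intervals. After thinning, 30.7% (25.8 to 36.0) of control and 29.8% (21.8 to 38.7) of mutant members had a UMI of Mki67 or Top2a, genes of dividing cells, and 30.0% and 31.6% of those with Sox10. Before thinning these shares were 45% and 44.8%, and 46.5% and 46.7%. Thinned microglia stood at 20.9% and 17.9% and erythroid cells at 11.1% and 7.76%. Of 49 measured G2/M genes 0 were higher or lower in all members (median 0.07). Of 50 in members with Sox10 13 were higher and 0 lower (median 0.29), Mki67 among them at 87.2 and 134 CPM. That count was 7 without called doublets, 6 without cells rich in Ttr, Neurod1 or haemoglobin and 4 with each cell scaled to the same total, and 26.0% of the mutant Mki67 UMIs came from 1 cell. Of 33 S-phase genes 0 were higher and 7 lower in all members, among them Rrm2 (115 and 60.5 CPM) and Tyms (79.6 and 42.4 CPM), while in members with Sox10 2 of 34 were higher and 1, Tyms, lower. In other kept cells the median was -0.46 for the S-phase and -0.65 for the G2/M list. Over all genes 7.59% were higher and 4.91% lower in all members, and 4.65% and 6.31% in those with Sox10. Of 6 measured inhibitors of cyclin-dependent kinases and related genes 3 were higher (Cdkn1a, Cdkn1c and Gadd45g) and 1 lower (Cdkn2d) in all members. Cdkn1a was at 20.8 and 83.8 CPM in all members but at 4.62 and 17.4 CPM in those with Sox10, where 1 of 5 genes of the list, Cdkn1b, was higher.

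In all members 10 of 25 measured genes of migration and axon guidance were higher and 6 lower (median 0.13), against 7.59% and 4.91% over all genes. In members with Sox10 0 of 24 were higher and 10 lower (median -0.53), against 4.65% and 6.31%. The difference between both sets of cells was not tested. Unc5d, a netrin receptor gene, was at 23.2 and 115 CPM in all members and at 31.7 and 9.37 CPM in members with Sox10. In mutant members 53.5% of its UMIs came from the deepest cell. The deepest control member, at 73224 UMIs, was a member with Sox10 and held 19 of the 129 Unc5d UMIs of control members. Its part in the control level of members with Sox10 was not tested. Nrp2, a semaphorin co-receptor gene, was at 8.26 and 39.5 CPM in all members and at 17.8 and 17.4 CPM in those with Sox10. The 10 lower genes in members with Sox10 were Epha4, Plxna2, Ephb2, Unc5d, Adgrg1, Sema5a, Epha3, Robo2, Efna5 and Dcc.

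The lists of this paragraph stand against 7.59% higher and 4.91% lower over all genes in all members, and 4.65% and 6.31% in members with Sox10. In lists this short a count of 1 lies near these shares. Of 11 BMP and Id genes 5 were higher in all members (Id1, Id3, Id4, Msx1 and Smad5), while of 9 in members with Sox10 0 were higher and 1, Bmpr1b, lower. Id1 was at 64.0 and 120 CPM in all members and at 30.4 and 34.8 CPM in members with Sox10. Id4 and Msx1 were under the mean of 20 CPM there and so were not counted, but their ratios were as large as in all members, 3.04 (1.28 to 7.56) against 2.42 for Id4 and 5.40 (1.30 to 31.6) against 3.46 for Msx1. Smad5 stood at 1.75 (0.981 to 3.09) against 1.86. Of 10 Notch genes 3 were higher (Notch2, Hes1 and Dll1), and of 8 in members with Sox10 0 were higher and 2 lower (Dner and Dll3). Of 9 Hedgehog genes 1 was higher (Cdon) and 1 lower (Mycn), and of 6 in members with Sox10 1, Boc, was lower. Without cells rich in Ttr, Neurod1 or haemoglobin, the log2 ratios in all members were -0.47 for Hes1 and -0.03 for Notch2. Of 21 cholesterol synthesis genes 4 were lower in all members (Fdps, Mvd, Fdft1 and Nsdhl) and 0 of 21 in members with Sox10, where Fdps was at 193 and 195 CPM. Of 17 matrix and proteoglycan genes 3 were higher (Tnc, Cspg4 and Gpc3) and 1 lower (Gpc5), and of 15 in members with Sox10 4 were lower (Tnc, Sparcl1, Sparc and Gpc5). Tnc, tenascin-C, was at 129 and 198 CPM in all members and at 47.6 and 18.7 CPM in those with Sox10.

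Of 21 measured channel and receptor genes of glutamate, GABA and voltage-gated currents 5 were higher and 2 lower in all members, against 7.59% and 4.91% over all genes. Of 21 in members with Sox10 3 were higher and 3 lower, against 4.65% and 6.31%. The higher ones in both sets included Scn3a, a sodium channel gene (42.9 and 81.6 CPM in members with Sox10), and the GABA receptor subunit genes Gabra2 (19.2 and 60.2 CPM) and Gabrg1 (52.2 and 87.0 CPM). Each was also higher in the other kept cells, Scn3a at 17.4 and 85.6 CPM, Gabra2 at 21.7 and 83.6 CPM and Gabrg1 at 11.3 and 40.3 CPM.

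Position genes gave little. None of the 17 Hox genes of the hindbrain list reached 20 CPM, and after thinning a Hox UMI was found in 6.38% (3.99 to 9.59) of control and 4.13% (1.36 to 9.38) of mutant members, against 17.7% and 15.7% before thinning. Thinned mutant microglia stood at 2.56%, within the interval of the mutant members. Thinned control microglia stood at 1.55% (0.188 to 5.49), below the interval of the control members, though the intervals overlap. Members with Sox10 were at 7.27% (3.19 to 13.8) in the control and 7.02% (1.95 to 17.0) in the mutant library after thinning. Of 11 genes of mid- and hindbrain position 1, Meis2, was higher in all members, and of 9 in members with Sox10 3 were lower (Pax3, Zic1 and Zic4). Of 9 immediate early genes 1, Fos, was higher in all members, and of 8 in members with Sox10 1 was higher (Junb) and 1 lower (Btg2). Of 9 genes of hypoxia and glycolysis none was counted either way, nor were the 7 in members with Sox10. Background shares were 7.59% higher and 4.91% lower over all genes in all members, and 4.65% and 6.31% in members with Sox10. A count of 1 in these short lists lies near them.

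Marker sums of other cell types are given for members with Sox10 against members without it. In both libraries they were lower with Sox10 for granule, choroid plexus, astroglial, neuronal, endothelial, fibroblast and unipolar brush cell markers, and higher for erythroid ones. The 9 granule lineage markers summed to 318 CPM in control and 28.1 CPM in mutant members with Sox10, against 1291 and 308 CPM in members without it, and Atoh1, Mfap4, Pvalb and Tlx3 were at 0 in the mutant cells with Sox10. The 4 choroid plexus markers summed to 235 and 1784 CPM against 11095 and 63877 CPM, and Ttr in all members was at 8024 and 41518 CPM. The 10 astroglial markers summed to 418 and 185 CPM against 631 and 831 CPM. The 12 neuronal markers summed to 1977 and 1453 CPM against 4393 and 1678 CPM. Of 11 measured ones 9 were lower in all mutant members, against 4.91% of all genes. The 7 endothelial markers summed to 9.25 CPM in control members with Sox10 and were all at 0 in mutant ones, against 23.4 and 17.0 CPM. The 9 fibroblast markers summed to 19.8 and 6.69 CPM against 39.7 and 60.7 CPM, and the 2 of unipolar brush cells to 17.2 and 1.34 CPM against 70.8 and 72.5 CPM. Mural, microglial and inhibitory neuron markers were higher with Sox10 in the control library and lower in the mutant one. The 7 mural markers summed to 93.8 and 13.4 CPM against 36.5 and 35.5 CPM, the 7 microglial ones to 6.61 and 5.35 CPM against 4.44 and 10.4 CPM, and the 7 of inhibitory neurons to 29.1 and 18.7 CPM against 19.2 and 45.1 CPM. The 6 erythroid markers, haemoglobin above all, summed to 48446 and 75211 CPM against 44951 and 26432.5 CPM. Schwann cells also express Sox10. The 5 genes of their list summed to 6015 and 5772 CPM in members with Sox10 against 3574 and 4330 CPM, of which Fabp7, also a gene of radial glia, gave 6010 and 5771 CPM against 3573 and 4330 CPM. In members with Sox10 Erbb3 was at 3.30 and 1.34 CPM, Dhh at 1.32 CPM and 0, Cdh19 at 0.661 CPM and 0, and Foxd3 at 0 in both libraries. The 12 markers of the mutant lesion cells, which an earlier analysis chose on these libraries, summed to 55.5 and 588 CPM in members with Sox10 and to 112.5 and 2399 CPM in the other kept cells. Of the lesion markers measured in members with Sox10, 6 of 6 were higher, against 4.65% of all genes. The part of free RNA and of shared droplets in this was not tested.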

How the data were processed

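The deposited values are raw UMI counts for each gene in each barcode, which the authors made with Cell Ranger 7.0.1 on mm10, per the submitters' processing notes. Annotation and intron counting: not given in the sources used here. Coordinates are from GENCODE M21 (32235 of 32285 identifiers found). Dead cells had been sorted out with 7-AAD, per the labels' protocols. Kept cells had at least 1000 UMIs, 500 detected genes and at most 10% mitochondrial UMIs. UMIs were summed over members and scaled to CPM. Ratios used log2((mutant + 1)/(control + 1)), and genes entered at a mean of 20 CPM. Rule, haemoglobin and mitochondrial genes stayed out of counts. Intervals are exact (Clopper-Pearson, Poisson, conditional binomial). Doublets were called with Scrublet (scanpy 1.11.5, expected rate 16%) and kept. The steps were tested on simulated counts.

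Named were the 12 largest differences each way that reached 50 CPM in 1 library, the 15 largest of members over other cells, up to 4 called genes a list, the markers, Sox10, Smarca4, Smarca2 and Ctnnb1. Genes named for members with Sox10 alone were chosen after their values were seen. The members and the 34 lists were chosen with earlier results of these data known. Some genes of the lists are not reported here, and list counts leave them out.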

Additional observations from a re-analysis of the deposited data

How the results depend on the processing

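With 1 library per genotype none was left out, and nothing separates genotype from library, pool or sex make-up, and intervals cover counting error only. No paired analysis was possible because each genotype has 1 library. Leaving out cells rich in Ttr, Neurod1 or haemoglobin, the deepest cell or the cell richest in committed genes, and all alternatives for members with Sox10, were chosen after seeing the data. The cause of each shift below was not tested. Of 110 named genes 78 were not counted as reversed in all members under any alternative run. That count leaves out sign changes of genes not counted as higher or lower. Sox6, for example, had a log2 ratio of 0.27 in all members and of -0.24 with Sox10 added to the rule.

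The ratio of member shares (0.389) was 0.537 with Sox10 added to the rule and 0.520 without rich cells. The 532 higher genes were 320 with Sox10 added, 352 with cells thinned to 3000 UMIs before the rule, 1136 at a mean of 5 CPM and 230 at 50 CPM. The 344 lower genes were 129 thinned, 637 at 5 CPM and 156 at 50 CPM. The 85 list genes counted either way were 50 thinned and 43 at 50 CPM. The ratio of Wnt readout shares (2.82) was 1.22 without thinning. In members with Sox10, the 320 higher genes were 148 at 50 CPM, and the 435 lower genes were 227 without rich cells, 268 with equal cell totals and 188 at 50 CPM. The 8 lower committed genes were 3 without the richest cell and 3 with Pdgfra at 2 or more UMIs. The 13 higher G2/M genes were 7 without doublets, 6 without rich cells and 4 with equal totals, and the 8 higher Wnt targets were 4 at 50 CPM.

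Log2 ratios counted as reversed in all members follow. Thinned before the rule, the choroid list median was -2.47, with Ntng1 at -0.21, Cog7 at 0.0364, Nkx2-2 at -0.0173, Dll1 at -0.0520, Mbp at 0.71, Pdgfa at -0.71, Fzd2 at 0.0376, Dpf3 at -0.58, Notch2 at -0.42, Id1 at -0.55, Rrm2 at 0.90, Mvd at 0.35, Fdft1 at 0.24, Gpc3 at -1.17, Tnc at -1.04, Scn3a at -0.37, Fos at -0.94, Nefl at 0.59, Hopx at -0.88, Ttr at -4.21 and Folr1 at -4.62. With Sox10 added, Hes1 was at -0.0572, Fgfr1 at -0.0110, Pdgfa at -0.00453, Dpf3 at -0.84, Notch2 at -1.09, Cdon at -0.21, Fdps at 0.0183, Gpc3 at -2.31, Tnc at -1.30, Unc5d at -1.66, Nrp2 at -0.0341, Fos at -0.26, Stmn2 at 0.0712 and Hopx at -1.19. Without rich cells, the neuron list median was 0.00767, with Hes1 at -0.47, Pdgfa at -0.11, Notch2 at -0.0262, Fdps at 0.0292, Gpc3 at -2.03, Tnc at -0.14, Meis2 at -0.0577, Nefl at 0.15, Stmn2 at 0.89, Gap43 at 0.00767, Hopx at -0.00313 and, in members with Sox10, Zfp536 at 0.0468 and Znrf3 at 0.0657. With Olig at 2 or more UMIs, Ptgds was at 0.23, Hes1 at -0.0929, Dpf3 at -0.17, Notch2 at -0.49 and Gpc3 at -1.57. With Pdgfra at 2 or more, Ptgds was at 1.32 and Gpc5 at 0.14. Ptgds was at 1.60 with collagen at 0 and at 1.77 without doublets, and Tnc at -0.0594 with equal totals.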
